A study of Mus musculus with 12 samples.

Results

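Testis ADAM proteins are a set of 10 mouse genes, Adam2, Adam3, Adam5, Adam18, Adam21, Adam24, Adam25, Adam29, Adam30 and Adam32, described here across 6 stage groups of the cycle of the seminiferous epithelium. The genes were chosen by name from the ADAM family, and the choice also rested on 1 measured value, the low level of Adam29 in group XII-I. The 10 genes stand among 19946 genes measured, and each was read by a single probe set with 1 gene symbol. RNA came from whole testes of adult males of a mixed 129/C57BL6 background, and the groups were the stages named XII-I and II-IV, then IV-VI and VII, and last VIII-IX and IX-XI, with 2 samples each. In every group spermatogenesis had been synchronized: pups received 100 ug/g of WIN 18,446, which blocks retinoic acid synthesis, daily for 7 days, from 2 to 8 days after birth. A 200 ug injection of retinoic acid followed on day 9, and testes were collected after a recovery of 43 to 49 days. All samples carried this treatment, so no untreated testis stands beside them, and whether partners in a group are different animals is not stated in the labels. P-values then reflect only how far such partners differ, a spread that may be technical.

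ADAM proteins are membrane proteins with a disintegrin and a metalloprotease domain. Those of the testis are made by germ cells and carried to the sperm surface, and many have lost the catalytic residues of the protease. In the mouse they form complexes that are folded by chaperones of the endoplasmic reticulum and cut during sperm maturation, and sperm that lack ADAM3 fail to pass from the uterus into the oviduct. Round spermatids form at the meiotic divisions of stage XII, lie in the tubules through the following stages, and begin to elongate at about stage IX, so each stage group holds another mix of spermatid steps.

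The 10 genes fell into patterns that ran in opposite directions around the cycle. Adam29, Adam25 and Adam24 were highest in IV-VI or VII and lowest in XII-I, with a spread of 3.08-fold to 9.04-fold between their highest and lowest group means. Adam30, Adam18 and Adam2 were highest in XII-I and lowest in VII, over a narrower 1.27-fold to 2.03-fold. Adam21 was highest in IV-VI and lowest in VIII-IX. Adam3, Adam5 and Adam32 spanned at most 1.16-fold. The median range over the 6 group means was 0.814 on the log2 scale for the 10 genes, against 0.341 for all genes. The range reached 2-fold in 5 of the 10 genes, or 50%, and in 1868 of 19946 genes, or 9.37%. Adam29, chosen for its low level in XII-I, is 1 of the 5, and its range also enters the median of the 10 genes.

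**Figure D1:**
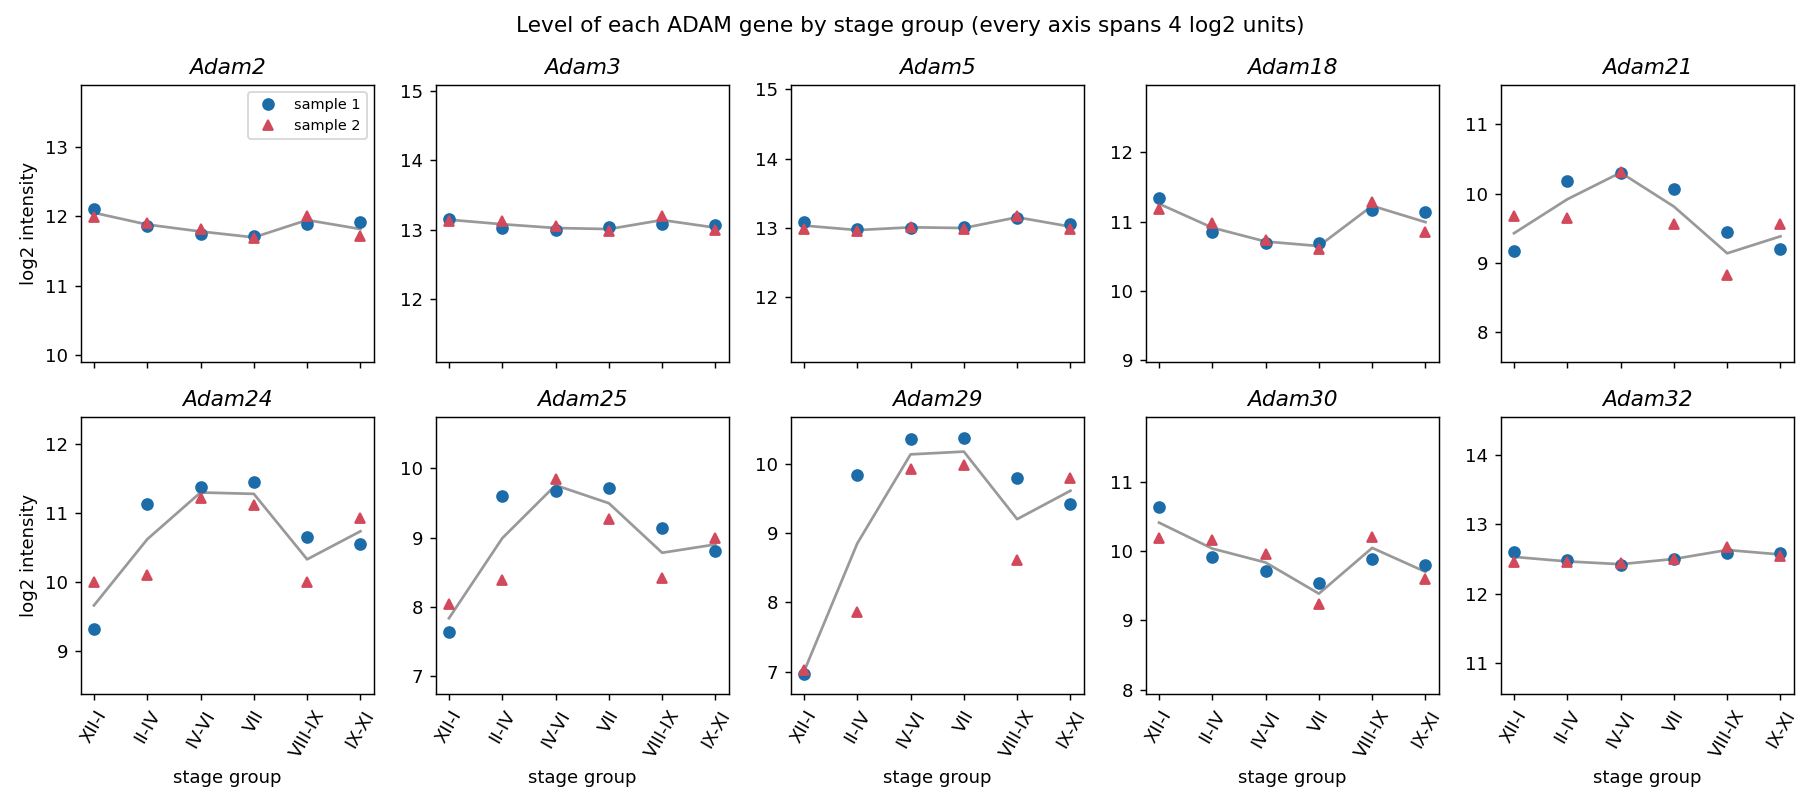
Level of each of the 10 genes by stage group, as log2 of the deposited intensity, in cycle order from XII-I to IX-XI; circles are sample 1, triangles are sample 2, lines join the group means, and every axis spans the same number of log2 units. Adam29 lies near 7 in both XII-I samples and near 10 in IV-VI and VII, while Adam3, Adam5 and Adam32 run almost flat.

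Before the values, the arrays themselves differed in ways the groups did not order. Some arrays resembled an array of another group more than their own partner. Across all genes, XII-I sample 2 had r = 0.998 with II-IV sample 2 but 0.988 with XII-I sample 1, and II-IV sample 1 had r = 0.998 with IV-VI sample 2 but 0.987 with its own partner. Markers of the tissue were present: all 8 round spermatid markers, all 8 elongating spermatid markers and all 7 measured pachytene spermatocyte markers lay above the array median on every array, as did all 7 measured Sertoli cell markers, all 5 measured Leydig cell markers and 4 of 5 peritubular myoid markers. Of 5 macrophage markers 1 did, and none of the 6 measured epididymis markers did, of which 5 lay below the median on every array. In whole testis, fewer cells of a type and less RNA per cell cannot be told apart.

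Sequence upstream of the transcription start was at hand for 3 of the 10 genes, from RefSeq on build GRCm38.p6. The 250 bases before the start of Adam29 and Adam25 are shown because these genes had the widest ranges among the 10 and followed each other closely. Capitals mark every match, on either strand, to a set of motifs chosen with earlier results known: the cyclic AMP response element TGACGTCA, the shorter site TGACG that this element contains, the short RFX site with the letters GTTGC, the MYB core with the letters AACTG, and the TATA box with the letters TATAAA. None of the matches overlap.
Adam29, chr8:55906965-55907214, minus strand, 5′ to 3′: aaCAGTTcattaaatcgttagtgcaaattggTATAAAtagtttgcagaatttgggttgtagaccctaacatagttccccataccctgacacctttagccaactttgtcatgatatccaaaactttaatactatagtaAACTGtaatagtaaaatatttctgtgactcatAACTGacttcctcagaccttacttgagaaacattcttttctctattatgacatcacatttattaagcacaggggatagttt
Adam25, chr8:40751958-40752207, plus strand, 5′ to 3′: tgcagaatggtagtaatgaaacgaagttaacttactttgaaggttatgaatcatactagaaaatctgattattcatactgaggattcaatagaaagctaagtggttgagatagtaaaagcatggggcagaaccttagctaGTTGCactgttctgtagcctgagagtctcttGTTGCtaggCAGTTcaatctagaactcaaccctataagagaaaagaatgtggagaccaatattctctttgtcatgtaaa
The Adam29 window held 3 MYB cores, counted upstream of the start at bases 248 to 244 (minus strand), 113 to 109 and 81 to 77, and 1 TATA box at bases 219 to 214. The Adam25 window held 2 short RFX sites, at bases 110 to 106 and 79 to 75, and 1 MYB core at bases 70 to 66 (minus strand). The window of Adam21, on chromosome 12, held no match. The same motifs were sought in 32851 promoter windows of the same length, with 1 chromosome left out. At least 1 MYB core was found in 39.1%, a short RFX site in 29.9% and a TATA box in 12.4%. The shorter site TGACG was found in 17.8% and the full response element in 1.55%. Single matches of the kinds found here are thus common, and the share of windows with several matches to a motif was not counted.

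Adam29 encodes a testis ADAM that lacks the catalytic motif. Its level, as log2 intensity, was 6.97 and 7.03 in XII-I, 9.84 and 7.86 in II-IV, 10.35 and 9.92 in IV-VI, 10.37 and 9.98 in VII, 9.79 and 8.61 in VIII-IX, and 9.42 and 9.80 in IX-XI. Both XII-I samples lay below every other array, and the nearest was II-IV sample 2, at 7.86. The group means (SD, n = 2) were 7.00 ± 0.04 in XII-I, 8.85 ± 1.4 in II-IV, 10.14 ± 0.3 in IV-VI, 10.18 ± 0.28 in VII, 9.20 ± 0.84 in VIII-IX and 9.61 ± 0.27 in IX-XI. In the order of these means, VII and IV-VI overlapped, IX-XI lay below both, VIII-IX overlapped IX-XI, II-IV overlapped VIII-IX, and XII-I came last. XII-I minus the mean of the other 5 groups was -2.59 on the log2 scale, or 6.03-fold lower, which is a description since the choice of genes used it.

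The II-IV samples of Adam29 stood 1.98 log2 units apart, with sample 2 near XII-I and sample 1 near IV-VI. The VIII-IX samples stood 1.18 apart. Among the 5 groups other than XII-I, Adam29 did not pass the test, with an adjusted p of 0.34 (moderated F test of limma, Benjamini-Hochberg over all genes). Without II-IV sample 1 the adjusted p was 0.037, and over all alternatives it lay between 0.037 and 0.53. Of the 4 steps that do not touch XII-I, none passed for Adam29. Its IV-VI level stood 1.29 ± 0.57 above II-IV (log2, SE; unadjusted p = 0.048, adjusted p = 0.71, limma), and its VIII-IX level differed from VII by -0.98 ± 0.57 (adjusted p = 0.32).

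Adam25 and Adam24, known in the mouse as testases, are testis ADAM genes that kept the catalytic motif. Adam25 had log2 levels of 7.63 and 8.04 in XII-I, 9.60 and 8.38 in II-IV, 9.67 and 9.84 in IV-VI, 9.72 and 9.27 in VII, 9.14 and 8.42 in VIII-IX, and 8.81 and 8.99 in IX-XI. As with Adam29, both XII-I samples lay below all other arrays and II-IV sample 2 came next. Adam24 had 9.32 and 10.01 in XII-I, 11.13 and 10.11 in II-IV, 11.38 and 11.21 in IV-VI, 11.44 and 11.11 in VII, 10.65 and 10.01 in VIII-IX, and 10.55 and 10.92 in IX-XI. For Adam24 the groups overlapped, since VIII-IX sample 2 stood as low as XII-I sample 2.

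Both genes fell in XII-I relative to the mean of the other 5 groups. The difference was -1.35 ± 0.29 for Adam25 (log2, SE), or 2.55-fold lower, with an adjusted p of 0.026 (limma). For Adam24 it was -1.18 ± 0.27, or 2.27-fold lower, with an adjusted p of 0.031. Of the 9 genes whose XII-I level the choice had not used, 2 fell, and 3.33% of all genes tested did so. Against IX-XI alone, which precedes it, the difference of XII-I was -1.07 for either gene, which did not pass (adjusted p of 0.082 for Adam24 and 0.095 for Adam25, limma).

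Adam21, another testis ADAM with the catalytic motif, had its lowest mean in VIII-IX, with IX-XI and XII-I close above it. Its log2 levels were 9.18 and 9.68 in XII-I, 10.19 and 9.65 in II-IV, 10.30 and 10.31 in IV-VI, 10.07 and 9.56 in VII, 9.45 and 8.83 in VIII-IX, and 9.20 and 9.57 in IX-XI. The IV-VI samples lay above all other arrays, and VIII-IX sample 2 was the lowest. The adjusted p over the 6 groups was 0.078 and that over the 5 groups without XII-I was 0.086 (limma), so Adam21 passed neither test. With array weights it passed both (adjusted p of 0.032 and 0.033), and the adjusted p lay between 0.032 and 0.21 over 6 groups and between 0.033 and 0.27 over 5 under all alternatives. XII-I differed from the others by -0.28 ± 0.22 (log2, SE; adjusted p = 0.48).

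Round spermatid markers, when summed, were lowest in XII-I and highest in IV-VI and VII, like Adam29, Adam25 and Adam24. Single markers differed: Tssk1 had its highest mean in IX-XI and Tssk2 in VIII-IX, while Acr had its lowest in VIII-IX. Over the 6 groups 1 of the 8, Spaca7, passed the F test of limma, beside 19.9% of all genes. An unadjusted p under 0.05 was found for 7 of the 8. The summed intensity of the 8 markers was 20928 to 24291 in XII-I, 25236 to 36314 in II-IV, 37841 to 41501 in IV-VI, 38429 to 42386 in VII, 27064 to 33240 in VIII-IX and 33529 to 38509 in IX-XI. Of the 8 markers, 4 fell in XII-I, Acrv1, Spaca7, Catsper1 and Izumo1, by -1.48, -0.62, -1.08 and -1.32 on the log2 scale (adjusted p of 0.024, 0.025, 0.041 and 0.029, limma), and the median over all 8 was -0.851, against 0.0113 for all genes. The count of 4 went to 0 without XII-I sample 1 or IX-XI sample 2, to 1 without IV-VI sample 1, to 2 with array weights and to 6 without II-IV sample 2, and Catsper1 passed with 4 of the 12 arrays left out in turn. Pachytene spermatocyte markers summed to 42382 to 46044 in XII-I and 40736 to 45477 in the other groups. Among the 7 measured, 1 rose in XII-I by the limma test, Ccna1, beside 7.51% of all genes. Piwil1 had its lowest mean, 11.69, in XII-I, close to its mean of 11.76 in II-IV. Its lowest arrays were sample 2 of these groups, at 11.36 in XII-I and 11.30 in II-IV. Elongating spermatid markers summed to 70878 to 74038 in XII-I, 61674 to 71734 in II-IV and 55776 to 60273 in IV-VI. They summed to 58836 to 64067 in VII, 78171 to 80416 in VIII-IX and 69908 to 74061 in IX-XI. Of these 8, Tnp1 and Tnp2 passed the F test of limma over the 6 groups, beside 19.9% of all genes. The part of round spermatid number in the levels of Adam29, Adam25 and Adam24 was not tested. Nor was that of elongating spermatid number in the levels of Adam30, Adam18 and Adam2.

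Adam30, which kept the catalytic motif, ran the other way. Its log2 levels were 10.63 and 10.19 in XII-I, 9.91 and 10.16 in II-IV, 9.71 and 9.96 in IV-VI, 9.54 and 9.23 in VII, 9.89 and 10.20 in VIII-IX, and 9.80 and 9.60 in IX-XI. Both VII samples lay below every other array, and XII-I sample 1 was the highest, while XII-I sample 2 overlapped VIII-IX sample 2. XII-I was higher than the mean of the other 5 groups by 0.61 ± 0.14 (log2, SE), or 1.53-fold (adjusted p = 0.033, limma). Adam30 also rose in XII-I over IX-XI, by 0.71 ± 0.19 (adjusted p = 0.04), and was the 1 gene of 9 to pass in that step, in which 12% of all genes passed in either direction. In VIII-IX it stood 0.66 ± 0.19 above VII (adjusted p = 0.07).

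Adam18, a catalytically inactive member, had log2 levels of 11.34 and 11.18 in XII-I, 10.85 and 10.98 in II-IV, 10.70 and 10.73 in IV-VI, 10.69 and 10.61 in VII, 11.17 and 11.29 in VIII-IX, and 11.14 and 10.85 in IX-XI. The partners lay close together in every group but IX-XI, and both VII samples were the lowest of the 12 arrays. XII-I was higher than the others by 0.36 ± 0.088 (log2, SE; adjusted p = 0.037, limma). Thus 2 of 9 genes, Adam30 and Adam18, rose in XII-I, and 7.51% of all genes did so. For Adam18 the VIII-IX mean, 11.23, was close to the XII-I mean, 11.26. Its log2 difference of XII-I from IX-XI, 0.27 ± 0.11 (SE), did not pass (adjusted p = 0.16, limma). Adam18 rose in VIII-IX over VII by 0.58 ± 0.11, or 1.49-fold (adjusted p = 0.045), the 1 gene of 10 to pass there, in a step that 3.93% of all genes passed in either direction. This call was lost with the sample number as a block (adjusted p = 0.052) and with array weights (0.08), and the adjusted p reached 0.2 over all alternatives. Adam18 was also the 1 gene of 10 to pass the test among the 5 groups without XII-I (adjusted p = 0.043), which 11.4% of all genes passed; 3 of the 10 genes had an unadjusted p under 0.05.

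Adam2 encodes the beta subunit of fertilin, and mouse sperm without it also lose ADAM3 from their surface. It followed Adam18 at a smaller scale, with log2 levels of 12.11 and 11.99 in XII-I, 11.86 and 11.90 in II-IV, 11.75 and 11.81 in IV-VI, 11.71 and 11.68 in VII, 11.89 and 12 in VIII-IX, and 11.92 and 11.71 in IX-XI. XII-I sample 1 was the highest array and VII sample 2 the lowest, and XII-I sample 2 lay within the VIII-IX values. The difference of XII-I from the others, 0.22 ± 0.074 (log2, SE), did not pass (adjusted p = 0.085, limma). Over the 6 groups the adjusted p was 0.14.

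VII sample 2, the lowest array for Adam2, Adam18 and Adam30, stood apart in somatic markers. Its 7 Sertoli cell markers summed to an intensity of 15769, against at most 11935 on the other arrays. Its 5 Leydig cell markers summed to 19582, against at most 15218, and its 5 macrophage markers to 2491, against at most 2152. VII sample 1, at 11894, 14428 and 1411 for the same lists, did not exceed the other groups, and Adam30 and Adam18 were low there too. The part of the somatic share in the VII levels was not tested.

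Adam3 (cyritestin), Adam5 and Adam32 varied least. Adam3 lay between 12.98 and 13.20 on all 12 arrays, with its highest array in VIII-IX and its lowest in VII. Adam5 lay between 12.96 and 13.17, and its VIII-IX samples, at 13.14 and 13.17, were above all others. Adam32 lay between 12.41 and 12.68, and its IV-VI samples, at 12.41 and 12.44, were below all others. XII-I differed from the other groups by 0.09 ± 0.066 for Adam3, 0.01 ± 0.059 for Adam5 and 0.01 ± 0.064 for Adam32 (log2, SE; adjusted p of 0.46, 0.96 and 0.94, limma). The adjusted p over the 6 groups was 0.65, 0.5 and 0.41. 

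**Figure D2:**
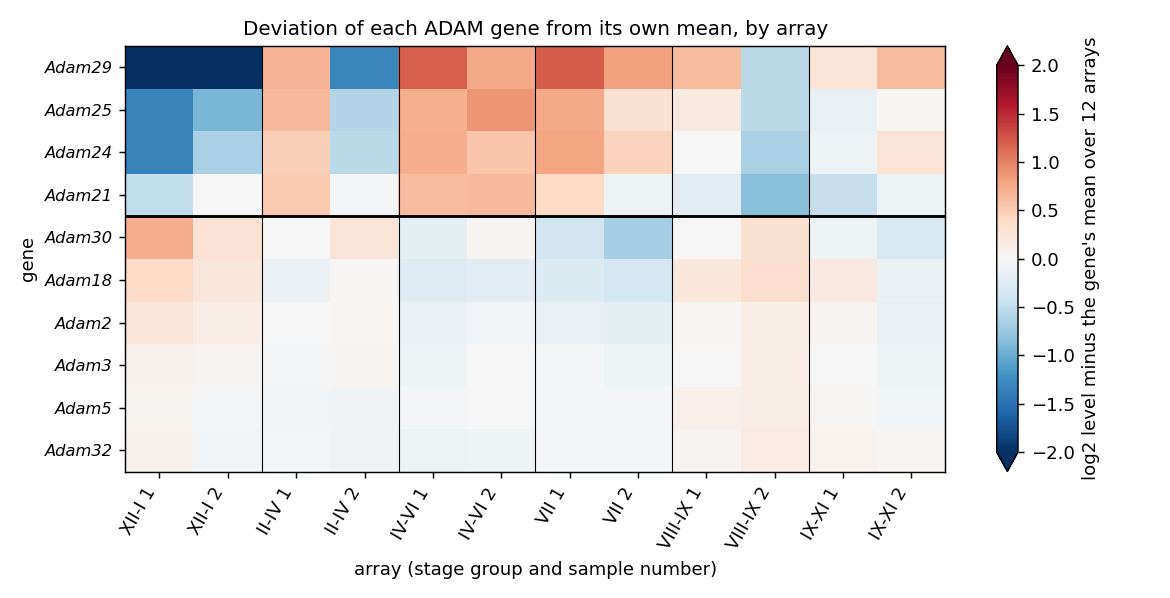
Deviation of each gene from its own mean over the 12 arrays, in log2 units, with genes in rows and arrays in columns in cycle order; the colour scale is capped at 2 units in either direction, and a line separates Adam29, Adam25, Adam24 and Adam21 from the other genes. Adam29, Adam25 and Adam24 are low on both XII-I arrays and on sample 2 of II-IV and of VIII-IX. Adam30, Adam18 and Adam2 are high on the XII-I arrays.

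Among the 6 groups, 4 of the 9 genes differed by the moderated F test of limma, Adam18 (adjusted p = 0.023), Adam30 (0.038), Adam25 (0.044) and Adam24 (0.049), and 5 had an unadjusted p under 0.05. Of all genes tested, 19.9% passed. None of the 10 genes passed where any group but XII-I was set against the mean of the others (limma). An unadjusted p under 0.05 (limma) was found for 5 of 10 in IV-VI, 5 in VII and 3 in VIII-IX. In those comparisons 0% of all genes passed for II-IV, IV-VI and VII, 7.84% for VIII-IX and 3.69% for IX-XI. Adam29 is among the 5 in IV-VI and the 5 in VII. The mean of the others there includes XII-I, whose Adam29 level the choice used, so its part in these counts is a description. In the steps into II-IV, IV-VI, VII and IX-XI from the group before, likewise 0% of all genes passed, and the genes with an unadjusted p under 0.05 numbered 3 of 9, 1 of 10, 1 of 10 and 0 of 10.

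These calls rested on few arrays. The 4 calls in XII-I became 0 without XII-I sample 1, XII-I sample 2, IV-VI sample 1 or IX-XI sample 2, and 1 (Adam25) without VIII-IX sample 1. Without VII sample 1, 2 were left (Adam25 and Adam30), and without VII sample 2, 3 (these and Adam24). With array weights 1 was left in XII-I (Adam25), while 5 passed over the 6 groups, the 4 and Adam21. The 4 calls over the 6 groups became 0 without IV-VI sample 1, IV-VI sample 2, VII sample 2 or VIII-IX sample 2. They became 1 (Adam18) without either IX-XI sample, or without sample 1 of XII-I, VII or VIII-IX, and 2 (Adam18 and Adam30) without XII-I sample 2. With the sample number as a block, Adam18 and Adam25 passed over the 6 groups, and the call of Adam18 among 5 groups was lost. The call of Adam18 among 5 groups passed with 4 of the 12 arrays left out in turn. Without the look-alike pair, sample 2 of XII-I and of II-IV, 5 of 9 genes passed over the 6 groups (Adam21 besides the 4), 3 passed in XII-I (Adam24, Adam25 and Adam30), and none among 5 groups. The rises of Adam18 into VIII-IX and of Adam30 into XII-I passed with 4 and 7 of the 12 arrays left out in turn.

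**Figure D3:**
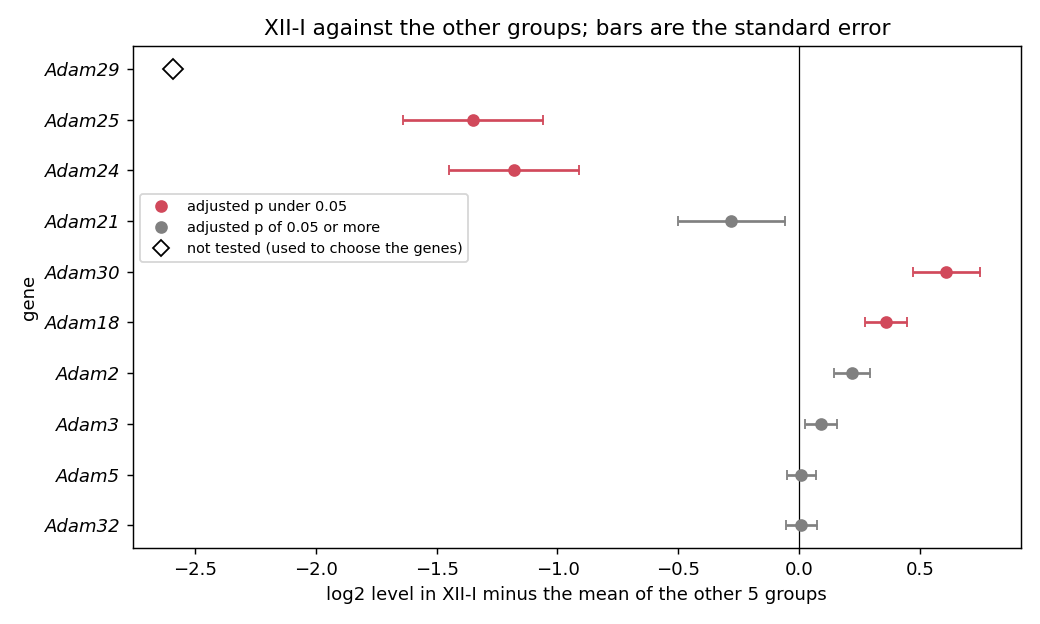
Difference of XII-I from the mean of the other 5 groups for each of the 10 genes, in log2 units with standard errors from the limma fit; red points have an adjusted p under 0.05, and the open diamond is Adam29, whose low XII-I level was used in the choice and is shown with no test. Adam25 and Adam24 lie at -1.35 and -1.18, Adam18 and Adam30 at 0.36 and 0.61.

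Levels of the genes tracked each other across the 12 arrays in sets formed after seeing the values. Adam24, Adam25 and Adam29 correlated at 0.93 to 0.97 (Pearson's r of log2 level, 12 arrays). Adam2, Adam3, Adam18 and Adam30 correlated at 0.80 to 0.93 among themselves, and between the sets r was -0.90 to -0.72. Adam5 and Adam32 correlated at 0.83, and Adam21 and Adam32 at -0.89. All of these share the same 12 arrays and their normalization, so they describe the arrays and carry no test.

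Chromosome 8 holds Adam24, Adam25 and Adam29, and also Adam18 and Adam3 of the set that ran against them. In the RefSeq annotation of GRCm38.p6, 7 of the 10 genes are on chromosome 8. Adam18, Adam3, Adam5 and Adam32 are adjacent coding genes, followed by Adam9, and in this row Adam18 and Adam3 were highest in XII-I while Adam5 and Adam32 were highest in VIII-IX. This split is slight, since the XII-I and VIII-IX means were 11.26 and 11.23 for Adam18 and 13.15 and 13.14 for Adam3. Of the row, Adam3, Adam5 and Adam32 did not pass the F test over the 6 groups. Adam24 and Adam25 are adjacent coding genes followed by Adam20, and each gene of this row was highest in IV-VI and lowest in XII-I. Adam29 lies elsewhere on chromosome 8, between Gm51600 and Glra3. Adam30 lies on chromosome 3 between Notch2 and Reg4, Adam2 on chromosome 14 between Gulo and Ephx2, and Adam21 on chromosome 12 between Synj2bp and Med6. Neighbouring paralogs have related sequences, and how far a probe set also reads RNA of a related copy was not tested.

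Of 10 other ADAM genes of the testis, the median range was 1.77 on the log2 scale, and 3 passed over the 6 groups, Adam1b (adjusted p = 0.019), Adam26a (0.025) and Adam26b (0.02, limma), beside the 19.9% of all genes; 8 had an unadjusted p under 0.05. The count ran between 1 (without VIII-IX sample 2) and 7 (without II-IV sample 1) with arrays left out in turn, was 6 without XII-I sample 1 and 5 without II-IV sample 2, and was 6 with the sample number as a block and 5 with array weights. Adam1b encodes the alpha subunit that pairs with ADAM2 in fertilin of mouse sperm. Its log2 levels were 11.27 and 11.24 in XII-I, 10.79 and 11.07 in II-IV, 10.15 and 10.70 in IV-VI, 9.82 and 9.67 in VII, 10.26 and 10.60 in VIII-IX, and 10.24 and 9.56 in IX-XI, so both subunit genes had their highest mean in XII-I and their lowest in VII, with a range of 1.51 for Adam1b and 0.35 for Adam2. Adam1a, whose product pairs with ADAM2 inside the testicular germ cell, was highest in IV-VI and had a range of 0.38. Adam26a had its highest mean, 9.42, in IV-VI and its lowest, 6.47, in VIII-IX, and Adam26b had 9.73 and 7.41 in the same groups, the same highest and lowest groups as Adam21.

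In XII-I, 1 of the 10 other testis ADAM genes rose and 2 fell, beside 7.51% and 3.33% of all genes. Adam1b rose by 0.97 ± 0.19 (log2, SE; adjusted p = 0.023, limma), while Adam20 fell by 1.23 ± 0.32 (adjusted p = 0.043) and Adam39 fell by 0.98 ± 0.24 (adjusted p = 0.036). These last 2 were named after their values were seen, and Adam20 is the coding gene after Adam25. With arrays left out in turn the difference ran from -1.819 to -0.65 for Adam20 and from -1.269 to -0.693 for Adam39. The call of Adam20 was lost with the sample number as a block (adjusted p = 0.052), and with array weights none of the 3 passed. The count of 3 went to 0 without XII-I sample 1, to 6 without II-IV sample 2, and to 1 without XII-I sample 2, either IV-VI sample, either IX-XI sample, VII sample 1 or VIII-IX sample 1. Adam6a stood at 9.27 and 7.10 in XII-I, 9.25 and 7.19 in II-IV, 10.24 and 9.41 in IV-VI, 10.34 and 9.94 in VII, 10.52 and 10.16 in VIII-IX, and 10.30 and 10.48 in IX-XI, and it passed no test. Sample 2 of XII-I and of II-IV was low for Adam6a, the same pair of arrays that resembled each other across all genes.

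Genes for proteins that fold, cut or hold ADAM proteins had a median range of 0.396 on the log2 scale over the 19 genes measured. Over the 6 groups 5 of 19 passed, beside 19.9% of all genes, and 9 had an unadjusted p under 0.05. The count was 2 without any 1 of the VIII-IX or IX-XI samples and 3 without any 1 of the IV-VI or VII samples. Prss37, a protease-like protein needed in the mouse for the cutting of ADAM3, had its highest mean, 12.70, in VIII-IX and its lowest, 10.27, in II-IV (adjusted p = 0.033, limma), a call that held with 2 of the 12 arrays left out in turn, those of XII-I. Calr3, calsperin, a chaperone needed for ADAM3 maturation, had 11.36 in IX-XI and 8.99 in II-IV (adjusted p = 0.025). Pcsk7 and Pcsk6, proprotein convertases, had ranges of 0.98 each (adjusted p of 0.011 and 0.012), with their highest means in IX-XI and II-IV. Clgn, calmegin, the chaperone of the fertilin dimer, lay between 12.20 and 12.36 on all 12 arrays.

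Pdilt, the testis disulfide isomerase that works with CALR3 on ADAM3, had an adjusted p of 0.049 over the 6 groups (limma), which was 0.064 with the sample number as a block and held with 3 of the 12 arrays left out in turn, and it followed Adam29 across the arrays, with r = 0.94. Its log2 levels were 9.51 and 10.59 in XII-I, 11.71 and 10.72 in II-IV, 11.99 and 11.84 in IV-VI, 12.06 and 11.79 in VII, 11.40 and 10.69 in VIII-IX, and 11.31 and 11.63 in IX-XI. It fell by 1.46 ± 0.31 in XII-I (log2, SE; adjusted p = 0.026), or 2.76-fold. Adam3, on whose protein it acts, differed there by 0.09 ± 0.066. Of the 19 genes, 2 fell in XII-I, Pdilt and Tex101 (by 0.50 ± 0.13, adjusted p = 0.043), and 1 rose, Pcsk6 (0.44 ± 0.1, adjusted p = 0.031). Pdilt passed there with 9, Tex101 with 3 and Pcsk6 with 7 of the 12 arrays left out in turn. The count of 3 was 0 without XII-I sample 1, IV-VI sample 1 or IX-XI sample 2, 1 without XII-I sample 2 or VIII-IX sample 1, 1 with array weights and 5 with the sample number as a block. TEX101 is the germ cell surface protein needed for ADAM3 on mature sperm.

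**Figure D4:**
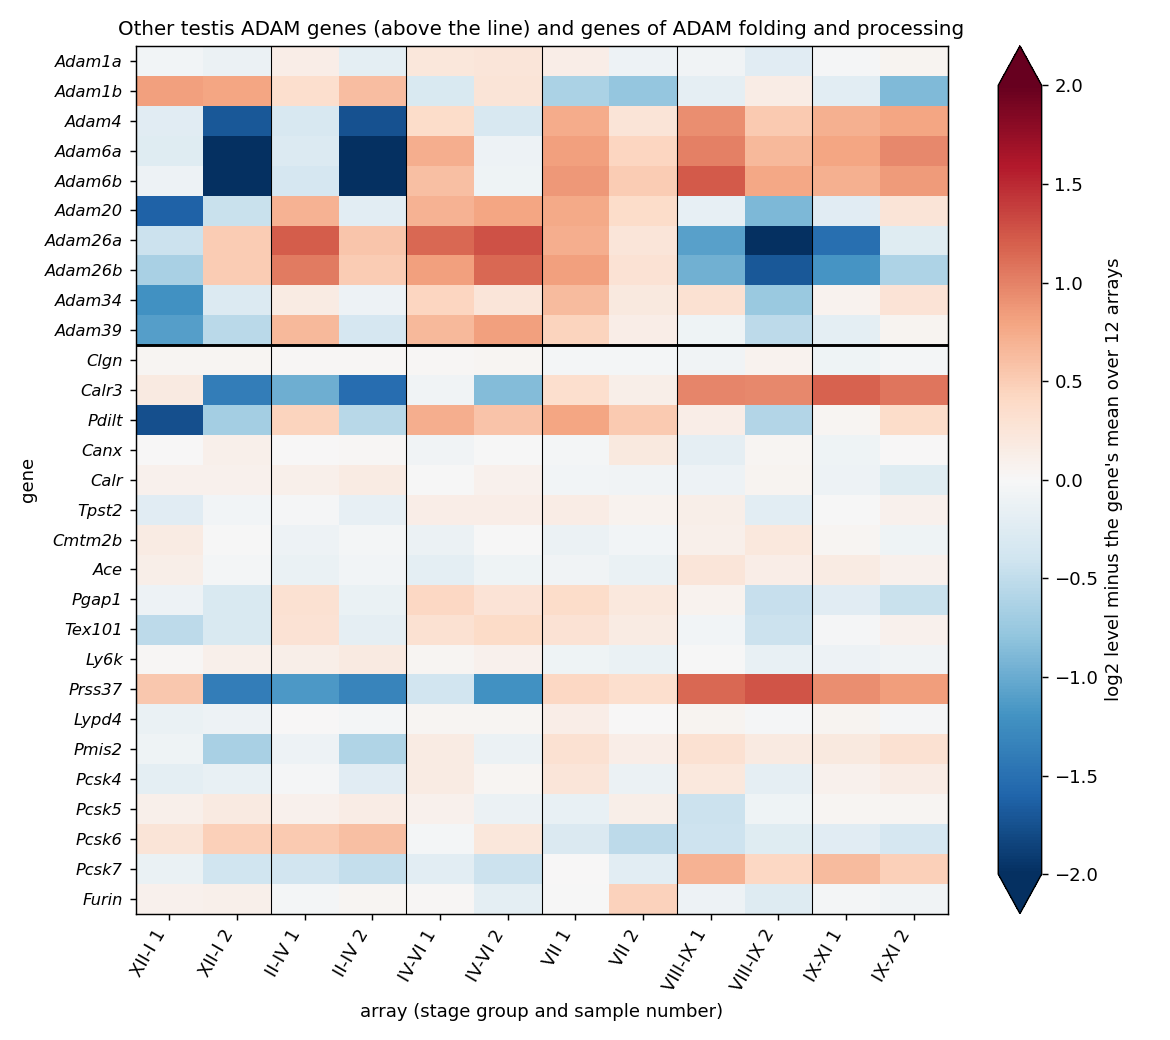
Deviation from the gene's own mean over the 12 arrays, in log2 units, for the 10 other testis ADAM genes (above the line) and the 19 measured genes of ADAM folding and processing (below the line), with arrays in columns in cycle order. Adam6a and its relatives are low on sample 2 of XII-I and of II-IV, and Pdilt is low on the XII-I arrays.

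Genes most like each varying member, by Pearson's r of log2 level over the 12 arrays, were the following. For Adam29 they were Atp6v1e2, a testis subunit of the vacuolar proton pump (0.99), Lrrc52, a subunit of the potassium channel of sperm (0.989), Stk-ps2 (0.989), Tex43 (0.989) and Fam183b (0.989). For Adam24 they were Ap2a2, a subunit of the clathrin adaptor (0.995), Lyzl1 (0.994) and Zcchc8 (0.992), and for Adam25 Emd (0.984), Ccnb1ip1 (0.984) and Ap2a2 (0.975). Ap2a2 stood on both lists. For Adam18 they were Trmt10b (0.992), Ddit3 (0.988) and AY702103 (0.986), and for Adam30 Kdm2b, a histone demethylase (0.986), Slc25a54 (0.984) and Prss21, the sperm protease testisin (0.975).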

How the data were processed

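RNA of 12 whole testes samples was hybridized to Affymetrix Mouse Gene 1.0 ST arrays, from 100 ng of RNA and 3.75 ug of labelled cDNA per array, per the labels. The authors deposited 1 linear intensity per probe set and array, made with RMA per the submitters' processing notes, with no version given. RMA corrects background, equalizes the arrays' distributions and summarizes probes, so values are relative within this set. The deposited values ran from 24.97 to 21760, with array medians of 296.9 to 309.1. The number of arrays limits the precision. No column was left out.

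Log2 of the deposited intensity was analysed. Of 28853 probe sets, the platform annotation gave 21797 a single symbol, and 1613 had several and 5443 were not listed. The brightest probe set with 1 symbol stood for each of 19946 genes, of which 999 had over 1. R 4.3.3 and limma 3.58.1 fitted 6 group means with 6 residual degrees of freedom. Tests were the F test over 6 groups and over 5, each group against the mean of the other 5, and the 6 steps from one group to the next. P-values were adjusted by Benjamini-Hochberg over all genes at 0.05, and the code was tested on simulated data. No test is given for Adam29 in XII-I.

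The 10 genes, the gene and marker lists, the tests and the motifs were chosen with earlier results of these data known. Named genes are the 10, from each further list up to 4 that passed the F test over 6 groups, widest ranges first, and the genes most alike in r over the arrays (5 for Adam29, 3 for each other gene past that test), passing over predicted genes, receptor families of smell and small RNAs. Pcsk6 (level with Pcsk7 in range), Adam1a, Adam6a, Adam20, Adam39, Clgn, Tex101, Ccna1, Piwil1 and the named round spermatid markers fall outside this rule and were named after their values were seen. Same-numbered samples deviated together in some pairs of groups and not in others: over 15 pairs of groups, r ran from -0.35 to 0.54 and exceeded 0.1 in 7. The labels do not say what the sample numbers stand for, and the main fit did not take them as pairs. Alternatives were repeated quantile normalization, median centring, leaving out the dimmest 30% of genes, other uses of a gene's probe sets, an intensity trend with robust spread, array weights, the replicate block, each array left out, and selected pairs of arrays left out.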

Additional observations from a re-analysis of the deposited data

How the results depend on the processing

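Over the 6 groups 3973 genes passed, with a range of 1522 to 4269 when each array was left out in turn, and 19 without sample 2 of both VIII-IX and IX-XI. Over the 5 groups without XII-I 2282 passed, with 620 to 2747 and 27 under the same alternatives. In XII-I 1497 genes were higher (0 to 1995 with arrays left out in turn, 378 with array weights) and 664 lower (0 to 1281, and 174 with array weights), and both counts were 0 without the VIII-IX and IX-XI pair of arrays. Against IX-XI, 1462 genes were higher in XII-I (5 to 1586, and 0 without that pair). In VIII-IX against VII 453 were higher, with 0 to 986 with arrays left out in turn, 11 with array weights, 184 with the replicate block, 0 without that pair, and 1450 without XII-I sample 2 and II-IV sample 2, an alternative chosen after seeing the data. Of the 9 ADAM genes tested, 4 passed over the 6 groups, with 0 to 4 when arrays were left out, 2 with the replicate block and 0 without the VIII-IX and IX-XI pair. In XII-I 4 passed, with 0 to 4, 1 with array weights (Adam25) and 0 without that pair. Whether the sample numbers mark pairs is not stated in the labels, so it is not known whether the fit with or without the block is the better estimate. The rise of Adam30 in XII-I over IX-XI did not pass after repeated quantile normalization. For Adam29 the XII-I difference stayed between -2.82 and -2.395 log2 units under every alternative run, and no called difference of the 10 genes reversed. Fits with an array left out assume that the lone sample of its group varies like the others. The cause of these shifts was not tested.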

Other observations

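Of 14 ADAM genes known mainly from somatic tissues, 10 did not pass the F test of limma over the 6 groups and 4 did, beside 19.9% of all genes: Adam11 (adjusted p = 0.012), Adam22 (0.022), Adam15 (0.032) and Adam19 (0.033), and the median range of the 14 was 0.417 on the log2 scale, against 0.341 for all genes. The count of 4 ran between 1 (without IX-XI sample 2) and 6 (without VII sample 1), and was 2 without VII sample 2, IX-XI sample 1 or any 1 of the IV-VI or VIII-IX samples. Adam15, a widely expressed adhesion protein, had its highest mean, 10.19, in II-IV and its lowest, 8.89, in VIII-IX. Adam11, a catalytically inactive member best known from the nervous system, had 9.81 in VIII-IX and 8.75 in VII. Adam22, the neuronal receptor of LGI1, had 9.43 in XII-I and 8.35 in IX-XI, and rose in XII-I over the mean of the other 5 groups by 0.69 ± 0.16 (log2, SE; adjusted p = 0.032, and up to 0.23 over the alternatives; it passed with 8 of the 12 arrays left out in turn). Adam19 had 7.99 in IX-XI and 7.47 in IV-VI. Adam15 and Adam19 each passed with 3 of the 12 arrays left out in turn. Without VIII-IX sample 2 the adjusted p of Adam15 was 0.09, and without IX-XI sample 1 that of Adam19 was 0.14.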
